A study of Rattus norvegicus with 4 samples.

Results

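High mobility group proteins are abundant, non-histone chromatin proteins, and H2az1 encodes H2A.Z, a replacement variant of histone H2A. The 8 genes described here are Hmgb1, Hmgb2, Hmgb3, Hmga1, Hmgn1, Hmgn2, Hmgn3 and H2az1. A probe was taken as theirs when its transcript accession belongs to 1 of these symbols in the RefSeq gene table, and measured values played no part. The 8 genes had 26 of the 45598 probes, and they are 8 of the 16581 genes that could be named. The cells were NR8383, an established macrophage line grown from rat lung lavage, at 20 passages. All 4 cultures received NRCWE006, a multi-walled carbon nanotube, at 1 cm2/cm2 for 4 h, and each was hybridised to 1 array. They form 1 group of 4 biological replicates. Cultures kept without nanotubes belong to the study's design but were not analysed here, so a value below shows how a culture looked after exposure and never what the exposure did.

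The HMGB proteins bend DNA with a pair of HMG boxes. Inside the nucleus they help transcription factors and repair enzymes to bind, and HMGB1 released from damaged cells or activated macrophages acts as an alarm signal through receptors such as RAGE and TLR4. HMGA1 binds the minor groove of AT-rich DNA through AT hooks, and the HMGN proteins bind the nucleosome core itself and loosen the packing of chromatin. H2A.Z marks nucleosomes beside active promoters, where the SRCAP and TIP60/p400 complexes put it in place. Hmgb2 and H2az1 transcripts are known to be high in dividing cells.

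The promoters of the 6 members detected on all arrays are printed below, since the levels that follow are theirs. On replicate 4, Hmgb2, H2az1, Hmgn1 and Hmgn2 had a lower level than the mean of the other arrays, and Hmga1 and Hmgb1 did not. Each sequence is RefSeq's, on build GRCr8, and runs 5′ to 3′ along the gene's strand from 250 bases before the annotated start through its first 50 bases. Capitals mark the letters CCAAT, the core of the CCAAT box, and TTTGAA, one form of the cell cycle homology region, on either strand.
Hmgb2, chr16:37723901-37724200, minus strand: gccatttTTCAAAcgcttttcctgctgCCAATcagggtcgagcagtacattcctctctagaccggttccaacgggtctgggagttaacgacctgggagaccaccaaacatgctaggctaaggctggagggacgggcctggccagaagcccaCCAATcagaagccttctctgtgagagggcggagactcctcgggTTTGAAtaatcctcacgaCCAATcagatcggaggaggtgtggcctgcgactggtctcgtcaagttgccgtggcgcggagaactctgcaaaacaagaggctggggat
H2az1, chr2:229028845-229029144, plus strand: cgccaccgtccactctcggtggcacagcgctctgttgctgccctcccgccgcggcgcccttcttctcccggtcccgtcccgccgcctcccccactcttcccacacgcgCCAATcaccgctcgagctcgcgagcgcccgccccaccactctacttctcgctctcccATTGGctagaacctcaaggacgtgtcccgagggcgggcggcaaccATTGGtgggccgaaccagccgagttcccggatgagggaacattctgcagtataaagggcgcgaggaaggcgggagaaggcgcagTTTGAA
Hmgn1, chr11:48897683-48897982, minus strand: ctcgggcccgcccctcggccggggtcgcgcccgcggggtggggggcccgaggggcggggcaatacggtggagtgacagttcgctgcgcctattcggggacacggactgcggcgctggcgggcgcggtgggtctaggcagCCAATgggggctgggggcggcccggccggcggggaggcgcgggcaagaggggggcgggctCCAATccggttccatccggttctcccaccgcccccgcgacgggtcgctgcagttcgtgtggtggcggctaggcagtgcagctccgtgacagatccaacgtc
Hmgn2, chr5:151479312-151479611, minus strand: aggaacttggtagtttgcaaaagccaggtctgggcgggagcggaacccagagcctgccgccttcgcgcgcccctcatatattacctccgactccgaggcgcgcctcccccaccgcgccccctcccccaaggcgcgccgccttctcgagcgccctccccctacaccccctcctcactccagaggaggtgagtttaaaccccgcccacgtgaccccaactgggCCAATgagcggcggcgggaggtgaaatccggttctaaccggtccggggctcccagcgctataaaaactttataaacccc
Hmgb1, chr12:11008986-11009285, plus strand: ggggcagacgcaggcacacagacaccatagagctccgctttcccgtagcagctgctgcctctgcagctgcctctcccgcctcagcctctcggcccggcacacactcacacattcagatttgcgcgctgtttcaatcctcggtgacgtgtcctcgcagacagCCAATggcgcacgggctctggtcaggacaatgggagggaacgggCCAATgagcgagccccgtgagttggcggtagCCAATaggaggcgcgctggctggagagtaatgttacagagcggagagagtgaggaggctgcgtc
Hmga1, chr20:5613258-5613557, plus strand: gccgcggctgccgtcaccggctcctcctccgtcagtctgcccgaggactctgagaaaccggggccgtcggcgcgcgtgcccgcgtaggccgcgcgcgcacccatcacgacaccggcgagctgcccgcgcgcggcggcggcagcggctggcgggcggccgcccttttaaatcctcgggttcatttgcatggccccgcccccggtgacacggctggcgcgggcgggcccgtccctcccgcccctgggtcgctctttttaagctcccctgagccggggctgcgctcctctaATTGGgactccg

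Counting the first base of the transcript as position 0, Hmgb2 has CCAAT at -223, -99 and -38 and H2az1 at -142, -85 and -40. TTTGAA stands at -243 and -56 in Hmgb2 and at 44 in H2az1, inside the first transcribed bases. Hmgb1 also has CCAAT in 3 places, at -89, -45 and -14, Hmgn1 has it at -111 and -51, Hmgn2 at -29, and Hmga1 at 38. Every printed member thus holds it, so its presence cannot separate them by their level on replicate 4, and nothing is concluded from it. The table holds 10 promoters for the 8 genes, since Hmgb3 has 3 of them, and a pair of these overlap and share their sites, so the motifs are counted by gene. At least 1 promoter held CCAAT in 8 of the 8 genes, against 39.6% of all 27457 rat genes in the table, and TTTGAA in 3 of 8, against 19.4%. The GC box letters GGGCGG were found in 6 of 8, against 36%, and the TATA box letters TATAAA in 2 of 8 (H2az1 and Hmgn2), against 15.3%. Both strands were searched for each motif. No CCAAT match shared bases with a TTTGAA match, while some GGGCGG matches overlapped each other, as did some of TATAAA. A match says that these letters are there, and no more.

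Many of these genes have close copies in the genome, which matters for probes that hybridise to sequence alone. The RefSeq table lists 34 pseudogenes and 15 like-named genes whose symbols are built on those of the 8, and 23 of these 49 copies carry the name of Hmgb1. Hmgn2 has 7, Hmgb2 and Hmgn1 have 5 each, Hmga1 has 4, Hmgb3 has 3, H2az1 has 2 and Hmgn3 has none. Only 1 copy had probes named here, Hmgb1-ps2. Probe sequences were not used here, so cross-hybridisation between a member and its copies was not tested.

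Replicate 4 stood apart as an array before any gene was considered. It had 656 gene spots called non-uniform, against 9 to 34 on the other arrays, and a median negative control signal of 4.61, against 2.98 to 3.36. The files give the same slide and scan time for the 4 arrays. Of the 15 macrophage markers, 14 had a probe and 7 were detected, among them Cd68, Fcgr1a, Lyz2 and Spi1, while Itgam, Cd14, Csf1r, Mrc1 and Adgre1 lay under that level on each array. None of the fibroblast, lymphocyte, granulocyte and lung epithelial markers was detected, and 1 of 5 endothelial markers was (Vwf). Of the 27 markers of other cell types with a probe, 23 were not called on any array, against 80.3% of all probes. On replicate 4 alone 3 were called, against 6.47% of all probes, and these 3 are named after their values were seen. Krt8, an epithelial keratin, had signals of 137 on replicate 4 and 2.85 to 3.14 on the other arrays, the surfactant protein gene Sftpb had 45.0 and 3.02 to 3.58, and the endothelial cadherin gene Cdh5 had 62.8 and 3.30 to 4.07. Each is a single spot. Marco, a macrophage marker also named after its values were seen, had 68.8 on replicate 4 and 3.21 to 3.87 on the others. The summed signal of the 27 markers was 487 on replicate 4 and 154 to 192 on the others. This unscaled sum includes the Krt8, Sftpb and Cdh5 spots given above, so it does not show a rise over the markers at large. Its part in the results below was not tested. Results below are given with and without replicate 4 where they rest on it.

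A probe is called detected here when over 50% of its usable spots were well above background on every array. Of the 8 genes, 6 were detected (Hmgb1, Hmgb2, Hmga1, Hmgn1, Hmgn2 and H2az1), against 11.9% of the 16419 named genes with a value on every array. By probe, 9 of 26 were detected, against 7.04% of all probes. Another 9 were called on 1 to 3 arrays, and 8 on none, against 80.3% of all probes on none. Of the 26 probes, 11 were printed 10 times on each array and 15 were printed once. All of those printed 10 times belong to Hmgb2, Hmga1, Hmgn1, Hmgn2 and H2az1, and all 9 Hmgb1 probes were printed once. Signals below are Agilent's processed signals on a linear scale, unscaled, and levels are log2 signals relative to the 75th percentile of the detected probes of the same array. Probes differ in how well they hybridise, so levels are compared between arrays and not between probes.

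**Figure D1:**
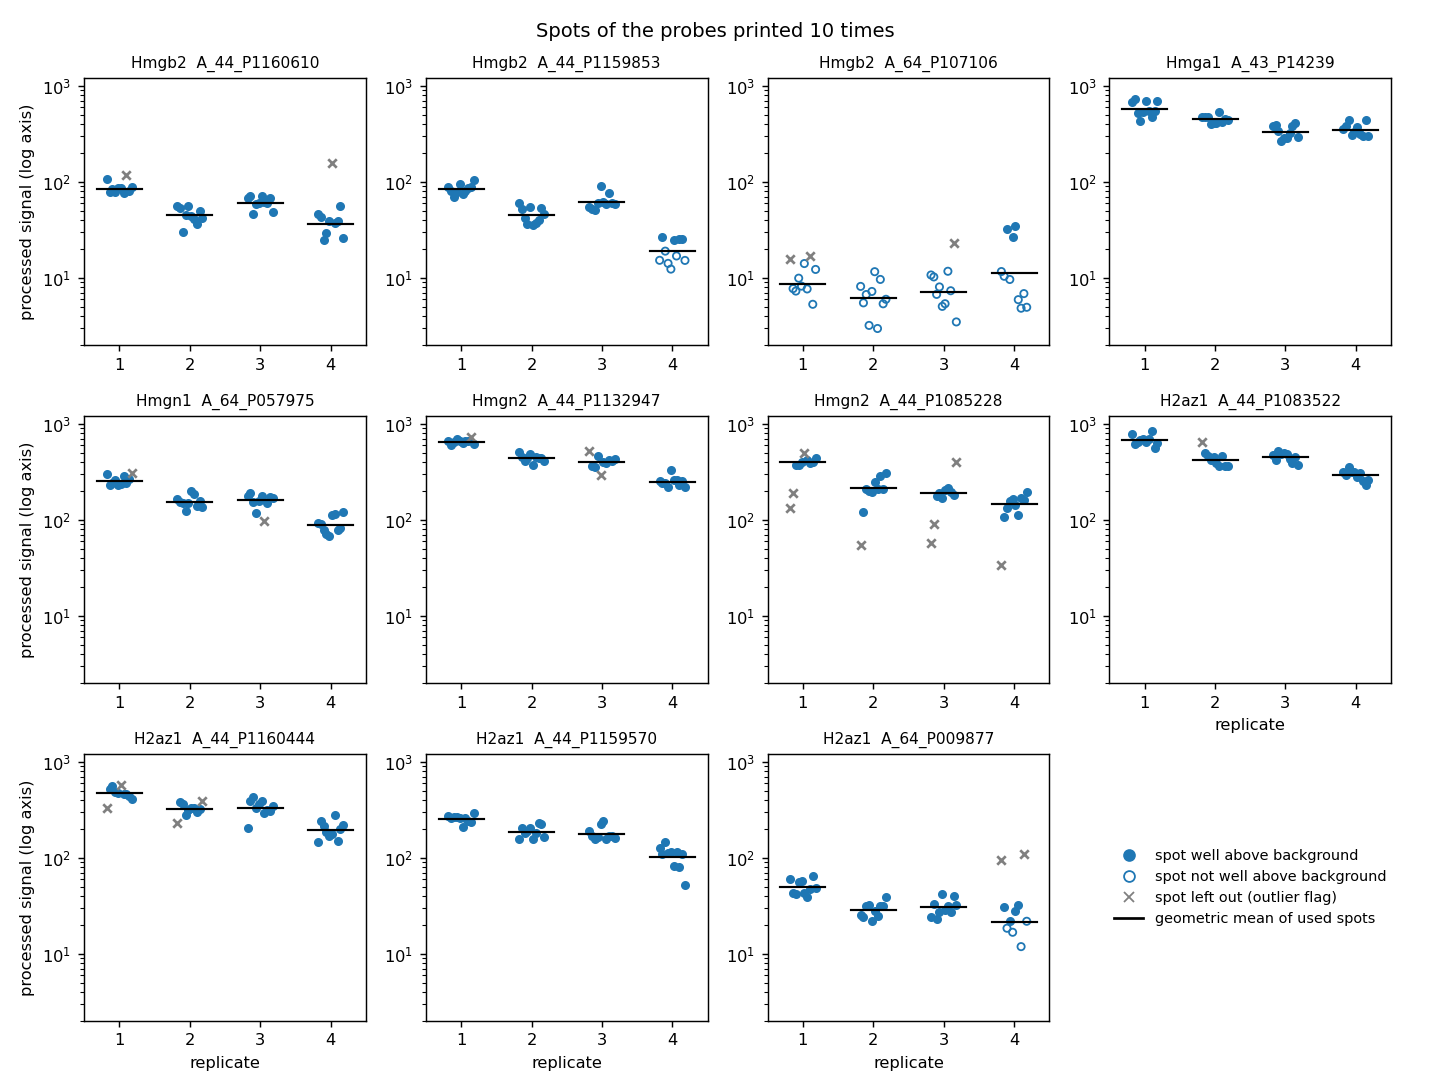
Processed signal (log axis, arbitrary units) of every spot of the 11 probes printed 10 times, by replicate, before scaling. Filled circles are spots well above background, open circles are not, crosses were left out for an outlier flag, and bars are geometric means of the used spots. The 10 spots of the Hmgb2 probe A_44_P1159853 on replicate 4 lie between 12.4 and 26.8, under every spot of the other arrays.

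H2az1 was measured by 4 probes, all printed 10 times, and over usable spots all 4 were lowest on replicate 4. The probe A_44_P1083522, which gave the gene its value, had signals of 674, 416, 453 and 291 on replicates 1 to 4. Its levels were 0.81, 0.57, 0.94 and 0.38, a mean of 0.68 ± 0.25 (SD, n = 4), or 0.77 ± 0.19 over replicates 1 to 3. Replicate 4 lay 0.39 below the mean of the others on the log2 scale. The probe A_44_P1160444 had levels of -0.20 on replicate 4 and 0.31, 0.21 and 0.49 on replicates 1 to 3. The probe A_44_P1159570 had -1.14 on replicate 4 and -0.59, -0.59 and -0.40 on replicates 1 to 3. The dim probe A_64_P009877 was well above background in every usable spot of replicates 1 to 3 but in 4 of 8 on replicate 4, with signals of 49.3, 28.6, 30.3 and 21.6. Its flagged spots there, at 93.6 and 111, were brighter than its usable ones and were left out, and the lowest place rests on that. The 4 probes, which share the transcript and the 4 RNA samples, deviated on replicate 4 by between -0.62 and -0.29 over usable spots. In RNA of a whole culture, fewer cells of a kind, such as dividing cells, and less of the RNA per cell cannot be told apart.

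Hmgb2, the HMGB protein most tied to dividing cells, gave a less even picture. Its probe A_44_P1160610 had signals of 85.1, 44.8, 61.1 and 36.9 and levels of -2.17, -2.65, -1.95 and -2.59 on replicates 1 to 4 (mean -2.34 ± 0.34, SD, n = 4). On this probe replicates 2 and 4 were both low, and replicate 2 was the lowest. The probe A_44_P1159853 gave almost the same signals on replicates 1 to 3, at 84.4, 45.2 and 61.9, but 18.9 on replicate 4, where 4 of 10 spots were well above background. Its level on replicate 4 was -3.56, which lay 1.31 below the mean of the other arrays, against 0.34 below on A_44_P1160610. All its spots on replicate 4 lay below all its spots on the other arrays after scaling. It was the only one of 10 member probes printed 10 times and called on at least 3 arrays for which this held, against 3.7% of all 784 such probes. A_64_P107106 had signals of 6.14 to 11.3 and was not called on any array. The 2 probes with signal placed replicate 4 at different distances below the others, and the gene's value rests on the probe with the smaller one.

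The nucleosome-binding Hmgn1 and Hmgn2 were both lowest on replicate 4. Hmgn1 had 1 probe, with signals of 254, 154, 161 and 89.1 and levels of -0.60, -0.87, -0.55 and -1.32 on replicates 1 to 4 (mean -0.83 ± 0.36, SD, n = 4). Replicate 4 lay 0.65 below the mean of the other 3, whose SD was 0.17. Hmgn2 had 2 detected probes, and the brighter, A_44_P1132947, had signals of 647, 439, 405 and 249. Its levels were 0.75, 0.64, 0.78 and 0.16 (mean 0.58 ± 0.29, SD, n = 4), so that replicates 1 to 3 lay within 0.14 of each other and replicate 4 lay 0.56 below their mean. The other probe, A_44_P1085228, had levels of 0.06, -0.40, -0.32 and -0.60, and replicate 4 was again the lowest, by 0.38 relative to the mean of the others. The same spot of A_44_P1085228 was the lowest on all 4 arrays, at 133, 55.1, 57.2 and 33.8, and it carried an outlier flag each time and was left out. For both genes the spots of replicate 4 overlapped those of at least 1 other array after scaling.

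Hmga1, the AT-hook protein gene, had the smallest SD of the 6 detected members when arrays were scaled by the detected probes. It ranged over 2-fold when they were scaled by all gene probes, as did 92.8% of all detected genes. Its probe printed 10 times, A_43_P14239, had signals of 581, 451, 333 and 352 on replicates 1 to 4. After scaling the levels were 0.60, 0.68, 0.50 and 0.66, a mean of 0.61 ± 0.08 (SD, n = 4), and 94.5% of all detected genes had a larger or equal SD. Replicate 4 lay 0.06 above the mean of the others, but at -1.50 with scaling by all gene probes and at -0.33 without scaling. Those 2 settings put the median of all detected genes at -1.64 and -0.47 on that array. Relative to the median, Hmga1 lay at 0.14 in the main setting and in both of these. That had to be so, since they differ only by 1 constant per array, which the median takes off. With quantile normalization Hmga1 lay at 0.51 relative to the median. This probe carries another transcript accession (XM_006256157) than the other 2 Hmga1 probes (NM_139327). Those were printed once and were dim, with 20.0, 18.1, 14.8 and 30.2 for A_44_P249033, which was called on 3 arrays, and 2.72 to 9.15 for A_44_P1152440, which was called on none.

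Hmgb1, the best known of the family as a nuclear protein and as a released alarm signal, had 9 probes to 1 transcript accession, and they did not move together. The only one detected on all arrays, A_44_P1368431, had signals of 40.1, 24.7, 52.4 and 80.0 and levels of -3.26, -3.51, -2.17 and -1.48 on replicates 1 to 4 (mean -2.60 ± 0.95, SD, n = 4). Replicate 4 was the highest on this probe, and the highest and lowest arrays lay 4.08-fold apart, or 2.53-fold without replicate 4. A_44_P1368984, of like signal on replicate 1, had 40.8, 41.6, 37.7 and 20.4, and it was called on replicates 1 to 3 but not on replicate 4. A_44_P1369708 likewise had 23.1, 22.2, 19.1 and 7.62 and was not called on replicate 4. A_44_P1361440 had 29.0, 8.31, 18.4 and 28.2 and missed the call on replicate 2. A_44_P1367456 had 22.4, 6.20, 4.33 and 29.2 and was called on replicates 1 and 4. A_44_P1369028, with 16.3, 8.25, 10.7 and 25.9, was called on replicate 4 alone. The other 3 probes were not called on any array. By level, replicate 4 lay above the mean of the other arrays on 6 of the 9 probes and below it on 3, by between -1.09 and 2.19. Among these are the 3 probes not called on any array, at 1.19, 0.86 and -0.04. Spots not well above background give no direction. Each of these values is a single spot, and the 9 probes gave no common direction. Of the probes to the copy Hmgb1-ps2, A_44_P1363097 had 3.59, 2.84, 2.93 and 27.6 and was called on replicate 4 alone, and A_64_P060038 was not called.

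**Figure D2:**
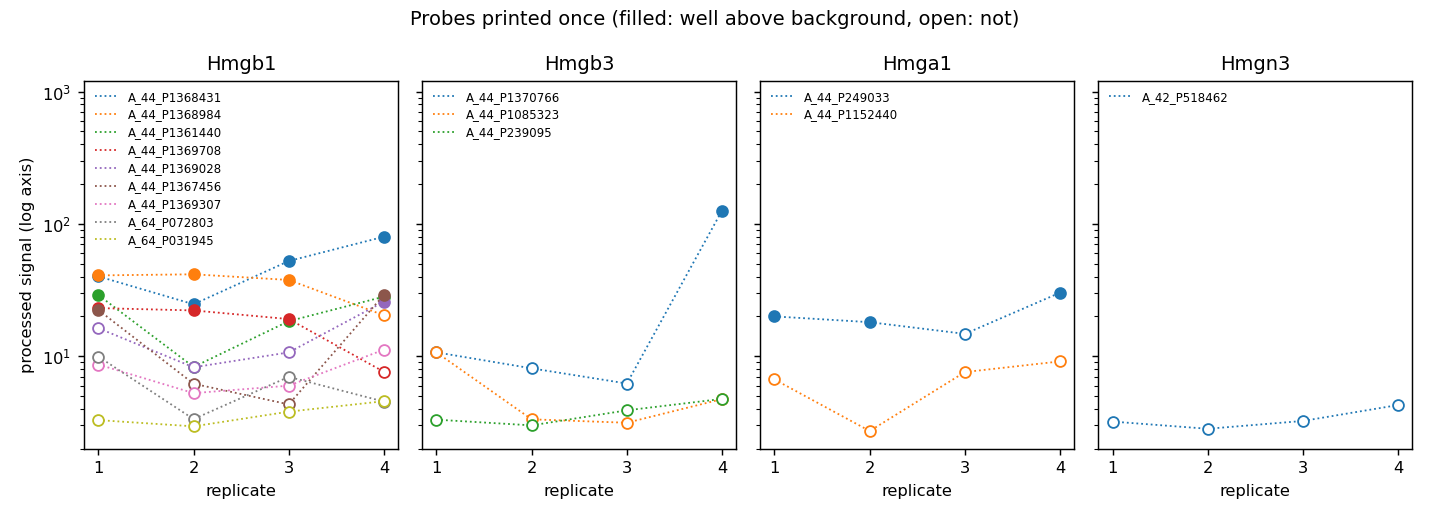
Processed signal (log axis, arbitrary units) of the 15 member probes printed once, by replicate and gene. Filled points were well above background and open points were not, and dotted lines only join the points of a probe, since replicates have no order. The Hmgb1 probes cross between replicates, and the Hmgb3 probe A_44_P1370766 stands at 126 on replicate 4 against 6.22 to 10.7 on the others.

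Hmgb3, a family member known in mice for its part in blood stem cells, and Hmgn3 were not detected. The Hmgb3 probe A_44_P1370766 had signals of 10.7, 8.10, 6.22 and 126 on replicates 1 to 4 and was called on replicate 4 alone. The other 2 Hmgb3 probes, which target the same accession, stayed between 3.01 and 10.7 and had 4.75 and 4.76 on replicate 4. Thus 1 of 3 probes was bright on that array and 2 were not. The single Hmgn3 probe had 3.21, 2.83, 3.25 and 4.28, near the median of the negative controls of each array. It matches 1 of the accessions of a gene with several transcripts, and a signal this dim gives only an upper bound, not a level of 0.

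Replicate 4 gained calls on some member probes and lost calls on others. It alone called 2 of the 26 member probes, against 6.47% of all probes. Of the 13 member probes called on replicates 1 to 3, 4 were not called on replicate 4 (2 of Hmgb1, 1 of Hmgb2 and 1 of H2az1), against 19.2% of all probes so called. Probes with that combination of calls made up 1.68% of all probes.

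Over the 6 detected genes, the SD between cultures ran between 0.08 for Hmga1 and 0.95 for Hmgb1, with a median of 0.312. The median over all 1946 detected genes was 0.241. When replicate 4 was left out, these medians were 0.182 for the members and 0.192 for all detected genes, so their order turned. Hmgb1 alone ranged over more than 2-fold between its highest and lowest array, 1 of 6, against 15.3% of all detected genes. Without replicate 4 the share of all detected genes was 3.66%. When replicate 4 was left out, the brightest Hmgb1 probe was A_44_P1368984 and no member ranged over 2-fold, although A_44_P1368431 itself still did. Which member is past 2-fold depends on the scaling: with scaling by all gene probes, Hmgb2, Hmga1, Hmgn1, Hmgn2 and H2az1 were, and Hmgb1 was not, against 92.8% of all detected genes. Replicate 4 was the lowest array for 3 of the 6 genes (Hmgn1, Hmgn2 and H2az1), against 39.6% of all detected genes, and the highest for 1 (Hmgb1), against 30.1%. By probe it was the lowest for 6 of 9, against 34.8%, but these 6 probes measure the same 3 genes. With so few members these shares are a description, and they do not set the genes apart from the rest of the array.

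**Figure D3:**
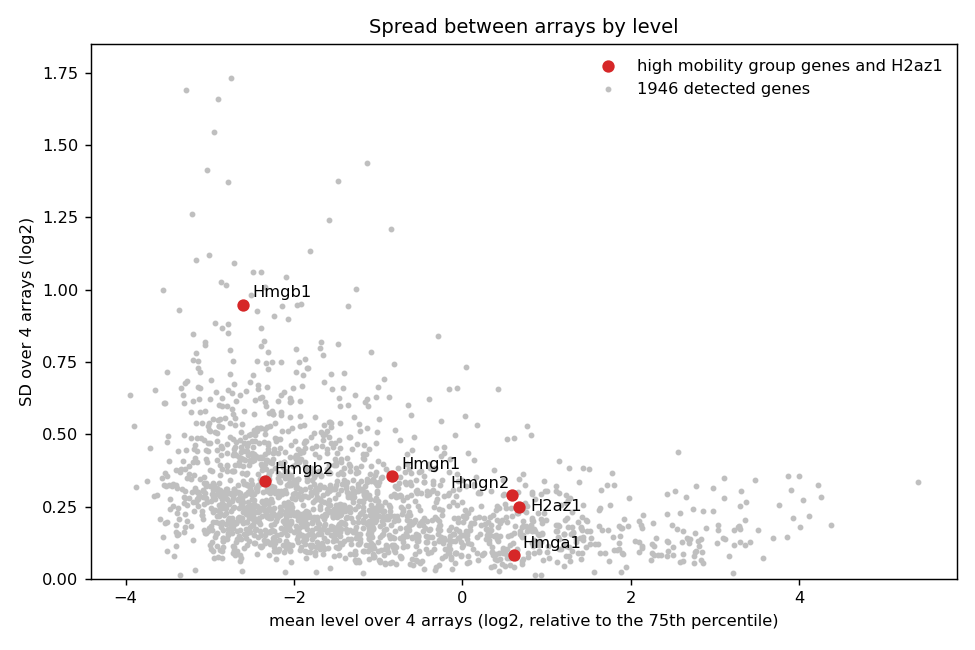
SD over the 4 arrays (log2, vertical axis) against the mean level (log2, relative to the 75th percentile of detected probes, horizontal axis) for the 1946 detected genes, with the 6 detected members in red. Hmgb1 had an SD of 0.95, larger than that of 98.7% of the detected genes, and Hmga1 had 0.08.

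The deviation of replicate 4 was next set against the median deviation over the detected genes, which was -0.07. Hmgn1 lay at -0.58, Hmgn2 at -0.49, H2az1 at -0.32, Hmgb2 at -0.27, Hmga1 at 0.14 and Hmgb1 at 1.57. The 5th and 95th percentiles of all detected genes were -0.70 and 1.14, and Hmgb1 alone lay outside them. Before the median was taken off, 2 of the 6 genes lay more than 0.5 below the other arrays, against 15.6% of all detected genes. None of the 8 detected member probes printed 10 times had all spots of replicate 4 below those of every other array, against 3.24% of 709 such probes, and none had them all above, against 1.41%. Scaling mattered for these small differences. Quantile normalization put the median of all detected genes at -0.46. Relative to it Hmgn1 lay at -0.41, Hmgn2 at -0.12, Hmgb2 at -0.93 and H2az1 at 0.07, so that the direction for H2az1 turned. Hmga1 then lay at 0.51 and Hmgb1 at 1.49. After normexp background correction, Hmgn1, Hmgn2 and H2az1 lay at -0.41, -0.57 and -0.40, Hmgb2 at -0.10, Hmga1 at 0.06 and Hmgb1 at 0.13. Hmgn1, Hmgn2 and Hmgb2 were below the median in each of these settings.

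Genes that work beside the members in chromatin were taken from 5 lists, and dividing-cell genes from another. The shares to set beside their counts are 11.9% of named genes detected and 39.6% of detected genes lowest on replicate 4. Of 11 other HMG-box, HMGA and HMGN genes with a probe, only Ssrp1, which encodes the HMG-box subunit of the histone chaperone FACT, was detected, at -1.07, -1.31, -1.34 and -1.88 on replicates 1 to 4. Hmgb4 and Hmga2 were among 5 of this list not called on any array. Of 10 variant or replacement histone genes, 6 were detected, and replicate 4 was the lowest array for 4 of these. H2az2, which encodes the other H2A.Z protein, had -0.95, -0.98, -1.21 and -1.69, and Macroh2a1, the large H2A variant of silent chromatin, had -2.06, -2.04, -2.14 and -2.88. Macroh2a1 was measured by a single spot. H2aj, another H2A variant, had 0.60, 0.98, 0.73 and 0.89, and H3f3b, encoding the replacement histone H3.3, had -0.40, -0.72, -0.03 and -0.54, so neither was lowest on replicate 4. The only gene of that list to range over more than 2-fold was H1f0, the linker histone of resting cells, at -0.94, -1.24, -1.32 and -2.32, and it is named after its values were seen.

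Of 14 genes for exchange of H2A.Z with a probe, 4 were detected. The helicase genes Ruvbl1 and Ruvbl2, shared by the SRCAP, TIP60 and INO80 complexes, had -1.98 and -2.82 on replicate 4 and means of -1.48 and -2.39 over replicates 1 to 3. Kat5, the acetyltransferase TIP60, spanned 0.34 over the 4 arrays. Znhit1, a subunit of SRCAP, had -3.13, -2.74, -2.66 and -0.87. Both Kat5 and Znhit1 were measured by a single spot. The catalytic subunit gene Ep400, and Anp32e, the chaperone that removes H2A.Z, were not called on any array. Of 17 histone chaperone and SET complex genes, 6 were detected, and 4 were lowest on replicate 4. Anp32b, an acidic histone chaperone, had 0.42, 0.23, 0.37 and -0.23, and Apex1, the repair endonuclease found beside HMGB2 in the SET complex of human cells, had -1.98, -2.07, -2.01 and -2.72. Nme1, a nucleotide kinase, had 0.08, 0.13, 0.40 and -0.06, and Npm1, the nucleolar chaperone, had -0.90, -0.92, -0.02 and -0.79, with replicate 3 apart from the rest. Apex1, Nme1 and Npm1 were each measured by a single spot.

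Of 15 genes for receptors and release of HMGB1 with a probe, 3 were detected, and 9 were not called on any array, Ager (RAGE), Tlr4, Tlr9 and Cd14 among them. Txn1, a thioredoxin that reduces protein disulfides, had 2.72, 2.71, 2.92 and 2.90, and Parp1, the poly(ADP-ribose) polymerase that also modifies HMGB1, had -0.90, -0.92, -1.04 and -1.36. Hdac1, a histone deacetylase, had -2.58, -3.20, -2.75 and -3.18. Tlr2 was called on some arrays only.

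The proliferation list had 11 of 24 genes detected, against 11.9% of named genes. Replicate 4 was the lowest array for 8 of them, against 39.6% of all detected genes. The deviation of replicate 4 ran between -1.46 for Cdk1, the mitotic kinase, and 0.17 for Tk1, a thymidine kinase, with a median of -0.40 over the list. The mitotic kinase gene Plk1 lay at -1.12, the ribonucleotide reductase genes Rrm1 and Rrm2 at -0.81 and -0.78, and Stmn1, a regulator of microtubules, at -0.74. The replicative helicase genes Mcm2, Mcm3 and Mcm7 lay at -0.20, -0.40 and -0.28, and the tubulin gene Tubb5 and the mitotic ubiquitin-conjugating enzyme gene Ube2c at -0.13 and -0.01. Stmn1 and Tubb5 were each measured by a single spot. The members' median was -0.36 on the same scale. Cdkn1a and Bax, the 2 detected of 8 genes for cell cycle arrest and p53 response, were highest on replicate 4. That array was the highest for 30.1% of all detected genes. Their levels there lay 1.31 and 0.98 above the mean of the other arrays. These genes were measured on the same 4 arrays as the members, and what part the state of that array or of that culture had in the lower levels was not tested.

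**Figure D4:**
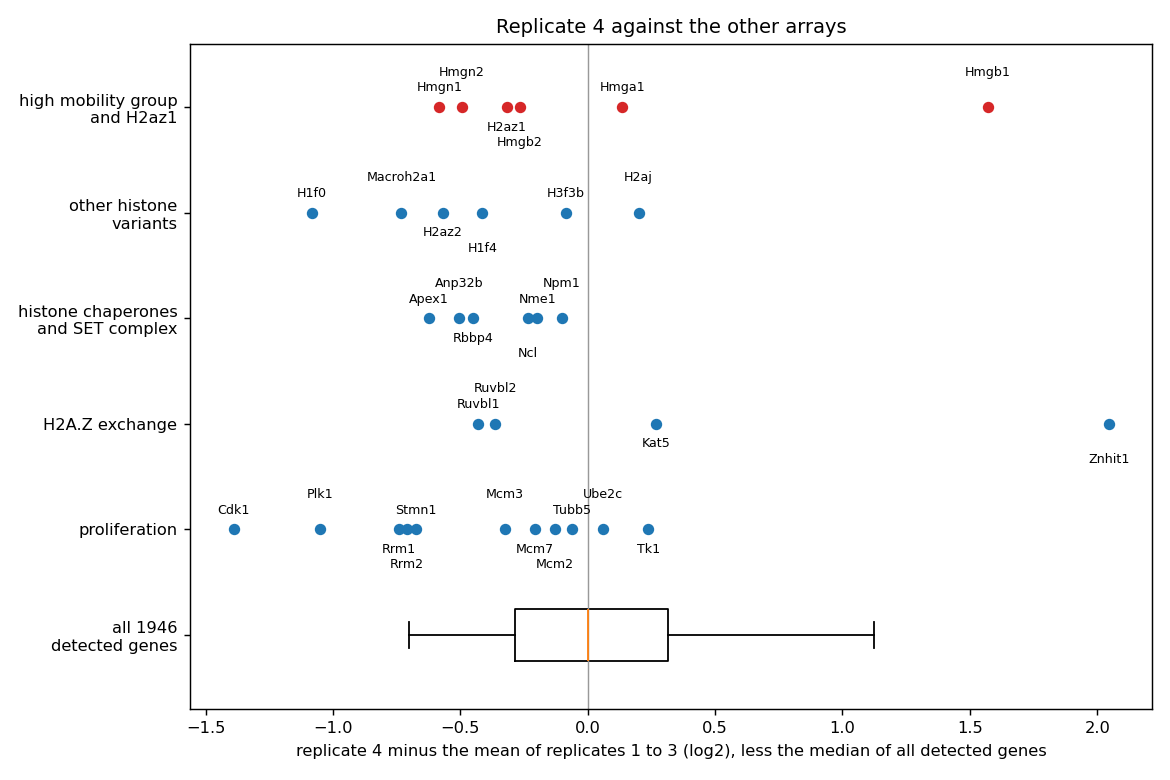
Replicate 4 minus the mean of replicates 1 to 3 (log2), less the median of all detected genes, for the detected members in red and for detected genes of 4 companion lists in blue. The box shows the quartiles and median of all 1946 detected genes, with whiskers at the 5th and 95th percentiles (-0.70 and 1.14). Hmgn1, Hmgn2, H2az1 and Hmgb2 lie between -0.58 and -0.27, within the whiskers.

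The genes closest in pattern were found by the root mean square difference of mean-centred log2 levels over the 4 arrays, for the 3 members with the largest SD. Hmgb1 was taken here by the single spot of A_44_P1368431, although its probes gave no common direction. Closest to that probe were Rheb, a small GTPase of the mTOR pathway, at 0.25, and Bsg, the cell surface protein basigin, at 0.28. Ccl2, a chemokine for monocytes, followed at 0.29. For Hmgn1 the closest genes were Snrpe, a core protein of spliceosomal particles, Pttg1ip and Cox5a, a subunit of cytochrome c oxidase, at 0.030, 0.031 and 0.032. For Hmgb2 they were Ncl, the nucleolar protein nucleolin, at 0.024, Tcp1, a subunit of the TRiC chaperonin, at 0.029, and Tra2b, a splicing regulator, at 0.040. Ncl had levels of -1.77, -2.30, -1.56 and -2.18 on replicates 1 to 4, with the same 2 arrays low as for Hmgb2. With 1946 genes and 4 arrays, close matches are easily found, and no measure of chance goes with them.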

How the data were processed

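The deposited files are Agilent scanner output for 1 colour (Cy3), and per the file headers the processed signal is a spot intensity on a linear scale, background-subtracted by Agilent Feature Extraction and not scaled between arrays. The flags for spots well above background, saturated, non-uniform or outlying were used as deposited. The submitters' processing notes give version 11.0.1.1 of that software. Per the labels' protocols, labelling started from 100 ng of RNA whose integrity number exceeded 7.5.

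Groups and replicates came from the sample titles. The 4259 control spots and 546 to 1296 flagged gene spots per array were left out, and the log2 intensity of the remaining spots of a probe was averaged. No gene spot was saturated. Levels were taken relative to the 75th percentile over probes detected on all arrays, which was 384, 281, 236 and 223 signal units for replicates 1 to 4. The 21109 probes (46.3%) with a transcript accession in the RefSeq table of assembly GRCr8 were named. The files' header names an older build, so coordinates are given only for RefSeq's own promoters. A gene took the value of its detected probe with the highest mean level.

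With 1 group and no control cultures, nothing was tested between groups, and the 4 arrays limit the precision of every value. Counts of members stand beside the share of all features. The members and gene lists were chosen with earlier results of these data known. The rule for named genes took all members, the first 4 detected genes of each companion list in written order (all detected of the proliferation list), and the 3 closest patterns of the 3 members with the largest SD. The range calculation was run on simulated data with known shifts, as a check of the code only.

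The alternatives were scaling by all gene probes, no scaling, quantile normalization, normexp background correction with an offset of 50, all spots, detection on 3 arrays or by negative control spots (95th percentile plus 10%), the mean over detected probes, and leaving out each replicate. Normexp had been planned on the mean signal and was run on the deposited median signal and median background intensity. R version 4.3.3, limma version 3.58.1, Python version 3.11.15, numpy version 2.4.6 and pandas version 2.3.3 were used.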

Additional observations from a re-analysis of the deposited data

Results flagged for a closer look

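The level of 1 array lay far from the other 3, by the gap to the nearest array over the whole range, for 1 of the 26 member probes and for 7 of the 44 other detected genes the text names. Chance flags about 1 in 20 groups of 4, and 7.66% of all detected genes were past the same limit. The member probe was A_44_P1370766 of Hmgb3, with a gap of 0.971 of its range, at a signal of 126 on replicate 4 against 6.22 to 10.7 on the others. The other 2 probes of Hmgb3 had 4.75 and 4.76 on replicate 4. Of 6 other dim probes whose signals are given or mentioned, the Marco probe not counted, 2 were past the limit. Both had replicate 4 apart and high: A_44_P1363097 of the copy Hmgb1-ps2 (0.889) and the Krt8 probe A_42_P784063 (0.887). The Marco probe was also high there, at 68.8 against 3.21 to 3.87 on the other arrays. Its gap is not given here, so the count of such probes may be too low. No member with a value on all arrays was past the limit.

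Replicate 4 was the array apart for Macroh2a1 (0.881), Apex1 (0.879), Cdk1 (0.919) and Plk1 (0.877), which were lower there, and for Cdkn1a (0.855) and Spi1 (0.904), which were higher. Replicate 3 was the array apart for Npm1 (0.851), which was higher there. Macroh2a1, Apex1, Spi1 and Npm1 were each measured by a single spot.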

How the results depend on the processing

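No paired analysis was possible because the replicate numbers occur in 1 group only. The same 6 members were detected in the 12 alternatives, except that detection by negative control spots added Hmgb3. The count of members ranging over 2-fold, 1 in the main setting, was 5 when scaled by all gene probes (the detected members other than Hmgb1) and 5 without scaling (those other than Hmga1), 2 after quantile normalization (Hmgb1 and Hmgb2), 2 with detection by negative control spots (Hmgb1 and Hmgb3) and 0 with normexp, and between 0 and 1 when a replicate was left out (0 without replicate 4). The count over all detected genes, 297 in the main setting, was 1806 when scaled by all gene probes, 1027 without scaling, 777 after quantile normalization, 39 with normexp, 1259 with detection by negative control spots and 623 with detection on 3 arrays. It was between 90 (without replicate 4) and 279 when a replicate was left out. The members' median SD was 0.971 when scaled by all gene probes and 0.546 without scaling, against 0.312 in the main setting, and between 0.182 and 0.356 when a replicate was left out. The median over all detected genes was 0.851, 0.456 and 0.241 in the same settings. It was between 0.192 and 0.254 when a replicate was left out. Without replicate 4 the members' median (0.182) was below that of all detected genes (0.192). The deviation of Hmgb1 on replicate 4, above the other arrays in the main setting, was -0.066 when scaled by all gene probes, which put the median of all detected genes at -1.64 on that array. Its deviation on replicate 2, -1.20 in the main setting, ranged between -1.68 and 0.17 when a replicate was left out. The value of 0.17 came without replicate 4, where another Hmgb1 probe gave the gene its value. Of 264 deviations of members under alternatives, 228 moved by less than the SD over the arrays, 34 moved by more, and the other 2 are these Hmgb1 values, the 2 deviations over 2-fold in the main setting. The sign changed in 22 of the 264, 7 of them when scaled by all gene probes. Every Hmgb1, Hmgb3 and Hmgn3 probe was printed once per array, so their error between spots is not known.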
